A study of Mus musculus with 4 samples.

Results

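The transcripts of 42 genes of the unfolded protein response and of the secretion machinery of the endoplasmic reticulum (ER) were followed in mouse T-helper 17 (Th17) cells. The genes were taken by symbol from a named list and all 42 were found among the 50600 genes of the count tables. RNA was sequenced in 4 libraries of 1 group, numbered in the labels as biological replicates (1 to 4). All 4 were primary Th17 cells of the C57BL/6NJ mouse strain, with no further genotype or treatment given, sex marked as not collected and age as unknown. The linked differentiation protocol is named for CD4+ T cells, and the library names carry the mark 72 hr and the word sorted. The 4 libraries have separate biosamples but 1 donor label, and no label says if each had its own animal or culture. The p-values below thus reflect only how these samples vary, which may in part be technical. The assay is labelled as total RNA sequencing, but the library protocol it links to is named for polyadenylated RNA.

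In the ER, secreted and membrane proteins enter through the Sec61 channel, fold with the help of chaperones and disulfide-forming enzymes, and are sent for degradation when they do not fold. The unfolded protein response reads the folding load through the sensors IRE1, PERK and ATF6. PERK also feeds the integrated stress response, a shared route through phosphorylation of the translation factor eIF2α and the transcription factor ATF4, which GCN2 reaches when amino acids run short. Cells that secrete much protein, helper T cells making cytokine included, rely on this machinery.

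Total counts ran from 9382661 in replicate 3 to 34542693 in replicate 1, a 3.68-fold range. All 7 markers of Th17 and CD4 T cells had at least 1 TPM (a transcript level scaled for gene length and library size) in the mean, Il17a and Il17f among them. Of 10 B-cell and plasma-cell markers, 3 had at least 1 TPM (Igkc, Ighm and Sdc1), while Ms4a1 had no count and the plasma-cell genes Jchain and Mzb1 were near 0 at 0.0482 and 0.114 TPM. Of 6 macrophage and dendritic-cell markers, Cd68 and Cd14 passed 1 TPM, at 6.08 ± 1.66 and 1.73 ± 0.784 TPM (SD, n = 4), and the defining macrophage genes Adgre1, Csf1r and Lyz2 were near 0 at 0.0882, 0.126 and 0.065 TPM. Sex-linked genes separated the libraries that share the donor label. In the order of replicates 1 to 4, Xist stood at 177, 193, 2.15 and 0.598 TPM and the Y-linked gene Ddx3y at 0.165, 0.133, 59.7 and 55.2 TPM. Replicates 1 and 2 thus read as female and replicates 3 and 4 as male. The 4 libraries therefore did not all come from 1 animal, and how many animals were used is not given.

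The 42 genes were expressed at widely different levels, and 41 of them reached 1 TPM in each of the 4 libraries. The same level was reached by 47.6% of protein-coding genes and 23.0% of all genes. The median over the 42 genes was 129 ± 3.57 TPM (SD, n = 4), and together they took between 0.976% and 0.987% of all counts of a library. The highest were the chaperone gene Calr at 1065 ± 67.5 TPM and the disulfide isomerase gene P4hb at 1058 ± 37.7 TPM, ranks 92 and 93 among 21764 protein-coding genes. The lowest was Derl3 at 0.968 ± 0.416 TPM. By role, the median level was 477 ± 27.3 TPM for the ER chaperones, 287 ± 4.51 TPM for disulfide formation, 193 ± 11.1 TPM for the translocon, 48.2 ± 2.43 TPM for ER-associated degradation, 34.7 ± 8.25 TPM for the integrated stress response and 28.4 ± 2.07 TPM for the sensors and their factors. These levels, ranks and the order of the roles depend on the exonic lengths in the files. With median protein-coding transcript lengths Calr had a mean of 644 TPM, below P4hb at 765 TPM and Hsp90b1 at 724 TPM. When the 42 genes were ordered by mean TPM, 14 of the 41 neighbouring pairs had ranges over the libraries that did not overlap, so most neighbours did not differ beyond their spread. Levels from bulk RNA cannot tell fewer cells with a transcript from less of it per cell.

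**Figure D1:**
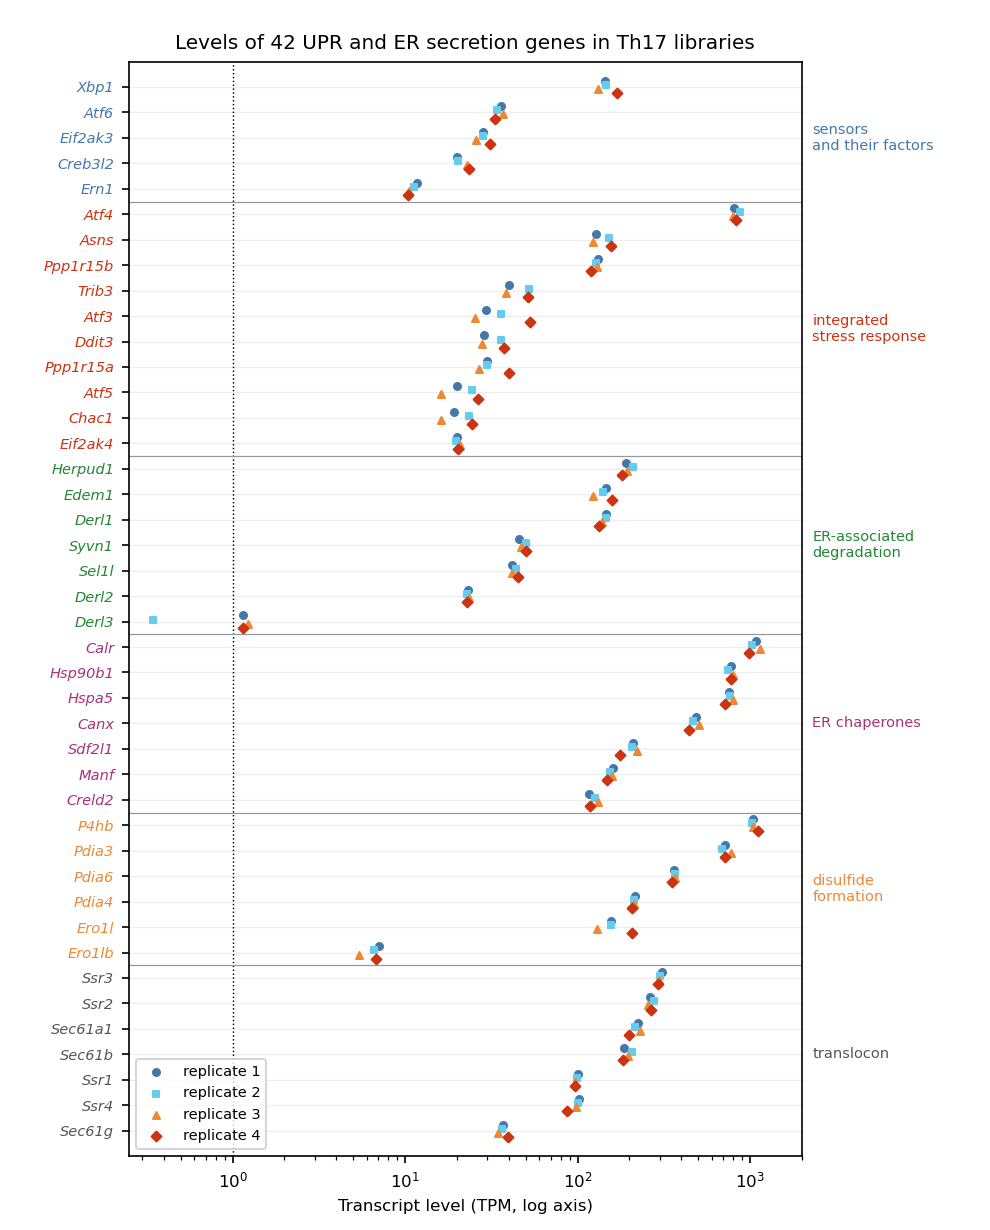
Level of each of the 42 genes in TPM (log axis), grouped by role and ordered by mean, with 1 point per library and a dotted line at 1 TPM. Derl3 is the only gene with a point left of the line, at 0.346 TPM in replicate 2, and the points of most genes lie close together.

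The promoters of these genes were read for the sequence elements known from the unfolded protein response and the integrated stress response. The ER stress response element (ERSE) is known to bind NF-Y at CCAAT and ATF6 or XBP1 at CCACG, ERSE-II is a compact form of it, the unfolded protein response element (UPRE) is known for XBP1, and the amino acid response element for ATF4. RefSeq windows on GRCm38.p6 (the mm10 assembly), from 250 bases before to 50 bases after each transcript start, were matched for 34 of the 42 genes and searched on both strands. ERSE, read as CCAAT, any 9 bases and CCACG, was found in 8 of the 34 (Hspa5, Hsp90b1, Calr, Canx, Creld2, Pdia6, Syvn1 and Derl3), against 37 of 27025 genes of the table, or 0.137%. ERSE-II, read as ATTGG, any 1 base and CCACG, was found in Herpud1, against 0.0444% of genes. UPRE, TGACGTGG, was found in 0 of the 34, against 0.714% of genes. The core of the amino acid response element, TGATGNAA, was found in 5 of the 34 (Asns, Atf3, Chac1, Trib3 and Herpud1), against 4.51% of genes. By role, ERSE was in 5 of the 6 chaperone genes with a window, and the amino acid response element core in 4 of the 9 integrated stress response genes with a window. The elements are known from the same responses that the genes were listed for. A share above that of all genes is thus no independent result, and it was not tested. No matches of different elements overlapped in these windows, and a match is a description of letters, not a bound site.

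The matches are shown with 6 bases on each side, as they differ between genes in strand and spacer. Each is written 5′ to 3′ on the strand of the gene, and capitals mark the fixed letters of the element, so that an ERSE on the opposite strand reads as CGTGG before ATTGG.
Hspa5 (ERSE, chr2:34772019-34772049, plus strand): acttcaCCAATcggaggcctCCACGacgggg
Hsp90b1 (ERSE, chr10:86705632-86705662, minus strand): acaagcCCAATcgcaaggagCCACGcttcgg
Hsp90b1 (ERSE, chr10:86705527-86705557, minus strand): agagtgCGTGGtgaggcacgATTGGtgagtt
Calr (ERSE, chr8:84847069-84847099, minus strand): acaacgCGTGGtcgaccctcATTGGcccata
Canx (ERSE, chr11:50325794-50325824, minus strand): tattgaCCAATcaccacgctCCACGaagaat
Creld2 (ERSE, chr15:88819514-88819544, plus strand): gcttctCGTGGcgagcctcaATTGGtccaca
Pdia6 (ERSE, chr12:17266485-17266515, plus strand): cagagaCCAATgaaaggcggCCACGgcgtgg
Syvn1 (ERSE, chr19:6046526-6046556, plus strand): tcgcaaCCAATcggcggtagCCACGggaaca
Derl3 (ERSE, chr10:75893236-75893266, plus strand): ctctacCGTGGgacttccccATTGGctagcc
Herpud1 (amino acid response element core, chr8:94386311-94386330, plus strand): ggcgggTTgCATCAgcccgc
Herpud1 (ERSE-II, chr8:94386371-94386393, plus strand): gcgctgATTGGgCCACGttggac
Asns (amino acid response element core, chr6:7693219-7693238, minus strand): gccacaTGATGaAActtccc
Atf3 (amino acid response element core, chr1:191183430-191183449, minus strand): tcgcacTTgCATCAccaagt
Chac1 (amino acid response element core, chr2:119351043-119351062, plus strand): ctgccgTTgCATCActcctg
Trib3 (amino acid response element core, chr2:152344033-152344052, minus strand): tcaggtTTaCATCAgccggg
Hsp90b1 carried 2 ERSE matches, 1 on each strand, and every other gene with an ERSE carried 1. Only exact matches were counted, so copies that differ in a fixed letter were missed. Counted from 0 at the first transcribed base, the ERSE of Hspa5 lay at -65 to -47, those of Hsp90b1 at -212 to -194 and -107 to -89, and that of Syvn1 nearest the start at -44 to -26. Herpud1 was the 1 gene with elements of both kinds, ERSE-II at -52 to -42 and the amino acid response element core at -112 to -105. The match of Trib3 lay after the start, at 14 to 21.

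**Figure D2:**
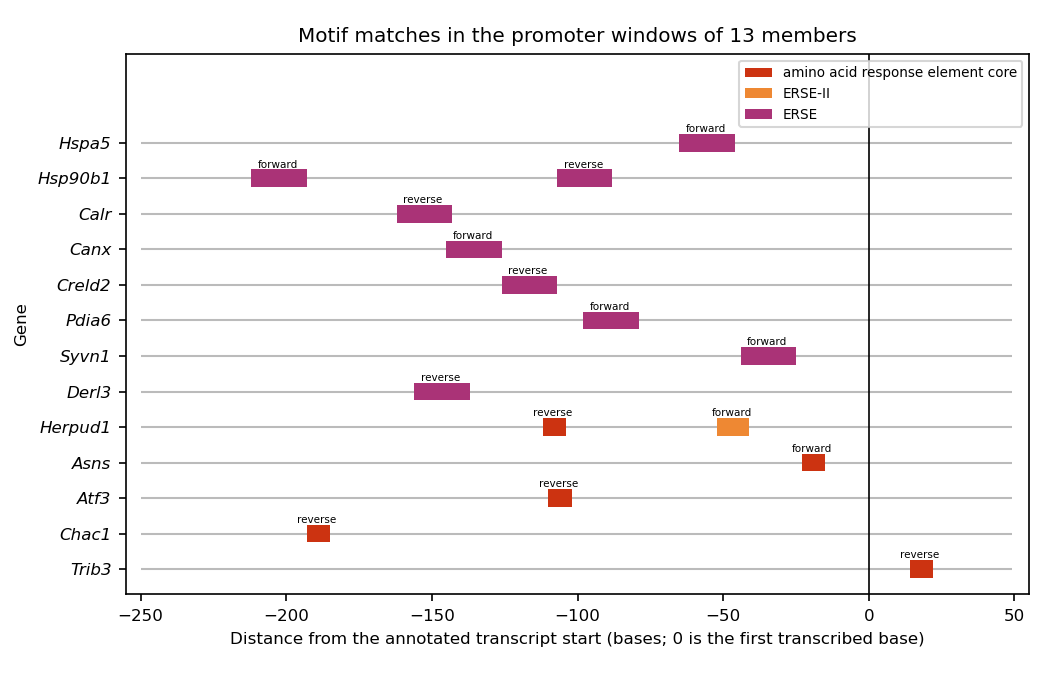
Position of each element match in the windows of the 13 genes that hold one, in bases from the annotated transcript start, with the strand above each bar. ERSE bars lie from -212 to -26, and that of Trib3 at 14 to 21 is the only bar after the start.

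For the genes at the centre of both responses, the 250 bases before the transcript start are given with the same capitals. Hspa5 and Hsp90b1 encode the chaperones BiP and GRP94, and Asns is known as a target of ATF4. Herpud1 held both kinds of element.
Hspa5 (chr2:34771840-34772089, plus strand): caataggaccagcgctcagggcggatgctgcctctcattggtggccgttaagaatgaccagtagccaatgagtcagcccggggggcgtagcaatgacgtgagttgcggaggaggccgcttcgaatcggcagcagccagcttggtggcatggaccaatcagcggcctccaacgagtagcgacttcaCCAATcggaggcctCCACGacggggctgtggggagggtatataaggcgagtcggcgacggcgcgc
Hsp90b1 (chr10:86705445-86705694, minus strand): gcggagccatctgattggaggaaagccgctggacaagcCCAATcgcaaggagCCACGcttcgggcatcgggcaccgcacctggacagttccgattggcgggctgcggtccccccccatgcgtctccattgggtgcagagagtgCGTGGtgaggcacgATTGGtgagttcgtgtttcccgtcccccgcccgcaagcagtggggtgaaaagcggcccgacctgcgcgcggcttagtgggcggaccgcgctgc
Asns (chr6:7693210-7693459, minus strand): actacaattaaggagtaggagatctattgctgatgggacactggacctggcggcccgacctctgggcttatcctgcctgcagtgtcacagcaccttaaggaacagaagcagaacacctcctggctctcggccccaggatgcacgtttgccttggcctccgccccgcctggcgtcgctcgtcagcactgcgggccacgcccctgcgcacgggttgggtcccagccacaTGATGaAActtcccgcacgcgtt
Herpud1 (chr8:94386179-94386428, plus strand): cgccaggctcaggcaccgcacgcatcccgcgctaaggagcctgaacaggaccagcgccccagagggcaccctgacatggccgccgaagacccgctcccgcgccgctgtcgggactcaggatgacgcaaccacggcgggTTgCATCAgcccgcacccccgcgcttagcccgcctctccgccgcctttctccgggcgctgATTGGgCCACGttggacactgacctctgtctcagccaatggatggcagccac

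The ER chaperones were the most abundant group. Hspa5, which encodes BiP, the Hsp70 chaperone that binds folding intermediates and holds the sensors inactive, had 761, 765, 796 and 716 TPM in replicates 1 to 4. Hsp90b1, which encodes the ER Hsp90 chaperone GRP94, had 773, 744, 793 and 778 TPM. With the exonic lengths in the files their levels overlapped, with Hspa5 above Hsp90b1 in 2 libraries and below it in 2. The within-library difference was -0.02 ± 0.069 on the log2(TPM + 1) scale (SD, n = 4), with an exact two-sided sign-flip permutation p of 0.75, and it turned to 0.04 on CPM, which is scaled for library size only, and to 0.01 without replicate 4. With the annotated protein-coding transcript lengths Hspa5 was below Hsp90b1 in all 4 libraries, by -0.33 (longest) or -0.63 (median) on that scale, each with an exact permutation p of 0.125, so their order depends on the length used. About 5.38% of the exonic bases of Hsp90b1 lie under other genes on its strand (Gm15344 and Gm25745), where reads were not counted.

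The lectin chaperones bind sugar chains on new glycoproteins. Calr, which encodes the soluble calreticulin, had 1087, 1032, 1149 and 993 TPM in replicates 1 to 4. Its membrane-bound relative Canx (calnexin) had 487, 466, 508 and 445 TPM. Calr was above Canx in all 4 libraries by nearly the same amount, 1.16 ± 0.0121 on the log2(TPM + 1) scale, the narrowest of the 14 differences between gene pairs taken within libraries. Sdf2l1, a partner of BiP and its J-domain helpers, had 211, 206, 220.1 and 177 TPM. Manf and Creld2, small secreted or luminal proteins known as ER stress genes, had 155 ± 5.43 and 123 ± 7.37 TPM (SD, n = 4). These levels depend on the length used. With median protein-coding transcript lengths their means were 461 and 56.2 TPM, and with the longest ones 177 and 89.1 TPM. Across the group, each gene varied by at most 1.25-fold between its highest and lowest library.

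Among the disulfide isomerases, which form and reshuffle disulfide bonds, P4hb had 1046, 1032, 1042 and 1114 TPM in replicates 1 to 4. Pdia3, which works with calnexin and calreticulin on glycoproteins, had 712, 685, 774 and 712 TPM. P4hb was above Pdia3 in each library, by 0.55 ± 0.0917 on the log2(TPM + 1) scale. Pdia6 and Pdia4 had 361 ± 6.36 and 212 ± 3.89 TPM, and the difference between them was 0.77 ± 0.0150 on the same scale, positive in 4 of 4 libraries. The ER oxidases recharge these isomerases. Ero1l had 156, 157, 129 and 208 TPM in replicates 1 to 4, with replicate 4 apart from the others. Its relative Ero1lb, known best from the pancreas, had 7.04, 6.58, 5.38 and 6.79 TPM. The mean TPM of Ero1l was 25.2 times that of Ero1lb, and the groups of 4 values did not overlap.

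With the exonic lengths in the files, the translocon genes ranged from Sec61g at the low end to Ssr3 at the high end. The highest was Ssr2 at 398 TPM with median protein-coding transcript lengths, and Sec61a1 at 337 TPM with the longest ones. The Sec61 channel subunits had means of 218 ± 13.9 TPM for Sec61a1, which encodes the pore, 193 ± 11.1 TPM for Sec61b and 36.8 ± 2.04 TPM for Sec61g (SD, n = 4). Sec61g was the lowest of the 7 in every library. Its mean rose to 55.1 TPM with its median protein-coding transcript length, 754 bases against 2464 exonic bases in the files, and stayed the lowest of the 7. The translocon-associated Ssr genes, whose products help some chains to enter, had means of 98.7 ± 1.92 TPM for Ssr1, 265 ± 9.79 TPM for Ssr2, 299 ± 6.41 TPM for Ssr3 and 96.9 ± 6.51 TPM for Ssr4. Ssr4 had 102, 101, 97.9 and 87.4 TPM in replicates 1 to 4, lowest in replicate 4. The level of Ssr4 depends on its length, 3096 exonic bases in the files, and its mean was 176 TPM with median and 273 TPM with longest protein-coding transcript lengths. That of Ssr1, with 9306 exonic bases, came to 245 TPM with median and 71.6 TPM with longest lengths.

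For ER-associated degradation, which returns misfolded proteins to the cytosol, the ubiquitin ligase gene Syvn1 had 45.5, 50.5, 46.8 and 50.04 TPM in replicates 1 to 4. Its adaptor Sel1l had 41.7, 43.7, 41.7 and 44.9 TPM, close to Syvn1 in each library. Herpud1, which organises this ligase complex, was the highest of the group at 193 ± 11.6 TPM (SD, n = 4). Edem1, which picks out misfolded glycoproteins by their trimmed sugars, had 146, 140.2, 122 and 158 TPM, so replicate 3 was the lowest and replicate 4 the highest. The derlins are membrane proteins of the exit channel. Derl1 had 141 ± 6.30 TPM and Derl2 had 23.1 ± 0.325 TPM. The difference between them was 2.56 ± 0.0676 on the log2(TPM + 1) scale and 1.24 on CPM without length correction. Its size rests on the length of Derl2, 8049 exonic bases in the files against 1466 in its median protein-coding transcript, since it was 1.44 with the longest transcript lengths and 0.14 with the median ones. Derl3 had 24, 5, 7 and 20 counts in replicates 1 to 4, or 1.15, 0.346, 1.23 and 1.14 TPM. The 95% exact Poisson interval of its lowest value, 0.112 to 0.808 TPM in replicate 2, overlapped those of the other 3 libraries, which began at 0.735, 0.495 and 0.699 TPM. These intervals cover counting error only.

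Of the 3 stress sensors, Ern1, which encodes IRE1α, had 11.7, 11.2, 10.6 and 10.4 TPM in replicates 1 to 4. Eif2ak3, which encodes PERK, had 28.2, 28.4, 26.0 and 31.0 TPM. Atf6 had 36.2, 34.2, 37.2 and 33.3 TPM. Ern1 was the lowest of the 3 in every library, by 1.29 ± 0.136 against Eif2ak3 and 1.596 ± 0.0876 against Atf6 on the log2(TPM + 1) scale. That order depends on the length given to Ern1, whose exons span 8173 bases in the files while its median annotated protein-coding transcript has 1308.5 bases. With the median transcript lengths both differences reversed, to -0.12 and -0.59, and with the longest transcripts they were 1.46 and 1.69. Xbp1, whose mRNA is spliced by IRE1 to give an active transcription factor, was the highest of this group at 144, 146, 131 and 170.04 TPM. Counts per gene do not separate its spliced from its unspliced form. Creb3l2, a relative of ATF6 that is also cut at the Golgi, had 21.7 ± 1.80 TPM (SD, n = 4).

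Within the integrated stress response, Atf4, its central transcription factor gene, was the highest at 808, 874, 802 and 831 TPM in replicates 1 to 4, rank 135 among protein-coding genes. Ddit3, which encodes CHOP, a factor under ATF4, had 28.7, 35.9, 28.1 and 37.6 TPM. The mean TPM of Atf4 was 25.4 times that of Ddit3, a ratio that depends on the length used. The difference on the log2(TPM + 1) scale was 4.64, and it was 3.97 with median and 3.71 with longest protein-coding transcript lengths. Eif2ak4, which encodes GCN2, was steady at 20.2 ± 0.446 TPM (SD, n = 4) and stood below Eif2ak3, by -0.47 ± 0.120 on the log2(TPM + 1) scale. Ppp1r15b and Ppp1r15a encode the constitutive and the inducible partner of the phosphatase that reverses eIF2α phosphorylation. Ppp1r15b had 132, 128, 130.2 and 119 TPM, and Ppp1r15a had 29.7, 30.04, 26.8 and 39.9 TPM, so the constitutive form was higher in every library, by 1.99 ± 0.301 on that scale.

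Among the other factors and targets of ATF4, Atf3, a factor induced by many stresses, had 29.5, 35.8, 25.4 and 53.1 TPM in replicates 1 to 4, a 2.09-fold range. Atf5 had 20.1, 24.5, 16.2 and 26.4 TPM, a 1.63-fold range. For both, replicate 4 was the highest and replicate 3 the lowest. Trib3, a pseudokinase gene that feeds back on ATF4, had 40.2, 52.4, 38.6 and 51.7 TPM. Chac1, which encodes an enzyme that breaks down glutathione, had 19.3, 23.5, 16.1 and 24.5 TPM from 332, 279, 75 and 352 counts. Asns, which encodes asparagine synthetase, had 127, 153, 123 and 156 TPM. In Trib3, Chac1 and Asns alike, replicates 2 and 4 lay above replicates 1 and 3. For Chac1 the 95% exact Poisson interval in replicate 3, 12.6 to 20.1 TPM, did not overlap those in replicates 2 and 4, which began at 20.8 and 22.04 TPM.

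Of 14 pairs of genes with like roles compared within libraries, 13 kept 1 sign in 4 of 4 libraries. Each of these 13 had an exact two-sided sign-flip permutation p of 0.125 and an adjusted p of 0.135 (Benjamini-Hochberg over the 14 pairs). With 4 libraries 0.125 is the smallest p that this test can give, so no pair could pass 0.05. The pairs not given above were Derl2 over Derl3 at 3.64 ± 0.334, Asns over Chac1 at 2.70 ± 0.113 and Atf5 over Atf3 at -0.67 ± 0.214 on the log2(TPM + 1) scale (SD, n = 4). The sizes depend on the gene lengths used. With median protein-coding transcript lengths P4hb over Pdia3 was 1.03, Pdia6 over Pdia4 was 1.54, Eif2ak4 over Eif2ak3 was -0.98 and Asns over Chac1 was 4.21, all in the direction given above.

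The spread of each gene between libraries was then set against the spread of genes of like abundance. The edgeR quasi-dispersion of each gene was divided by its trend over abundance, with Benjamini-Hochberg adjustment over the 12156 genes tested. Of the 41 members tested (Derl3 had too few counts), 0 passed an adjusted p of 0.05, as did 0.00823% of all genes tested, which is 1 gene, Xist. At an unadjusted p under 0.05 there were 2 members, Atf3 and Ero1l, against 4.9% of all genes, a share near the background. Atf3 stood at 15.2 times its trend (adjusted p = 0.774 in edgeR's test) and Ero1l at 13.8 times (adjusted p = 0.806). Next came Asns at 5.01, Ppp1r15a at 4.90, Trib3 at 4.34 and Xbp1 at 3.92 times their trend. Without the filter on low counts Atf3 alone of the members passed, at an adjusted p of 0.043, as did 0.592% of 21299 genes, and in DESeq2 Atf3 was the only member among 111 genes marked as dispersion outliers.

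**Figure D3:**
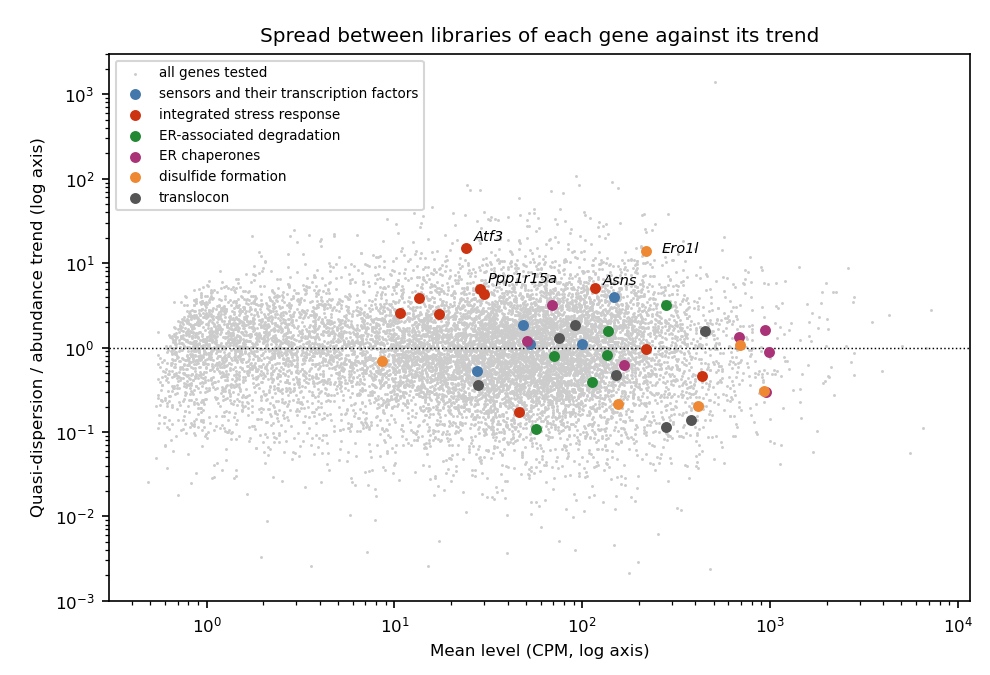
Quasi-dispersion over the abundance trend for each gene tested (log axis) against its mean level in CPM (log axis), with members coloured by role and all genes in grey. Atf3 and Ero1l lie highest among the members, at 15.2 and 13.8 times the trend, inside the range of the grey points.

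By median TPM the roles kept the same order in all 4 libraries. The role lists differed in how they moved between libraries. For each library, the shift of a gene was its log2 CPM minus its mean in the other 3. The median shift of the 10 integrated stress response genes was -0.13, 0.15, -0.26 and 0.26 in replicates 1 to 4, and that of the 7 ER chaperones was 0.03, -0.02, 0.15 and -0.13. Over all genes tested the medians were near 0, and the middle 90% of genes lay between -0.58 and 0.37 in replicate 3 and between -0.34 and 0.56 in replicate 4. That range is of single genes and is no yardstick for a list median, and no test was made of the medians. The median shift of the stress response genes in replicate 3 was -0.17 when replicate 4 was left out, and in replicate 4 it was 0.18 without replicate 3. That of the chaperones in replicate 3 was 0.10 without replicate 4.

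Of the 10 integrated stress response genes, 7 were lowest in replicate 3, where 34.2% of all genes tested were lowest, and 6 were highest in replicate 4, where 33.2% were highest. In 8 of the 10, replicates 2 and 4 both lay above replicates 1 and 3, an order noticed in these values, which 21.9% of all genes showed. The exceptions were Eif2ak4 and Ppp1r15b. The shifts in replicate 4 were 0.81 for Atf3, 0.46 for Ppp1r15a, 0.38 for Atf5, 0.32 for Chac1, 0.28 for Ddit3, 0.24 for Trib3 and 0.20 for Asns. All 7 ER chaperones were highest in replicate 3 on the log2 CPM scale, where 33.9% of all genes were highest, and 5 of the 7 were lowest in replicate 4, against 32.9% of all genes. On the TPM scale Manf was slightly higher in replicate 1, at 161 against 159 TPM in replicate 3. No chaperone had replicates 2 and 4 both above 1 and 3. Ero1l had shifts of -0.39 in replicate 3 and 0.49 in replicate 4, and those of Edem1 were -0.25 and 0.20, in the same direction as the stress response genes.

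Depth and cell type markers also differed between these libraries. Replicate 3, where the stress response genes were lowest, had the fewest counts, 9382661, while the totals of replicates 1, 2 and 4 were 34542693, 23673174 and 28629187. The summed level of the 6 macrophage and dendritic-cell markers was 7.38, 10.9, 5.29 and 9.35 TPM in replicates 1 to 4, with replicates 2 and 4 above 1 and 3. Nearly all of it came from Cd68 and Cd14, which had only 15 and 3 counts in replicate 3. The summed level of the CD8 T-cell markers was 11.3, 14.7, 12.3 and 15.4 TPM, nearly all from Cd8b1. That of the 7 Th17 and CD4 T-cell markers was 21909, 20161, 21749 and 18469 TPM, with replicates 1 and 3 above 2 and 4, the reverse of the order of the stress response genes. That of the B-cell and plasma-cell markers was 40.02, 40.8, 56.3 and 49.6 TPM. The part of depth, of the Th17 marker level and of these cells in the shifts was not tested. The sex-linked genes split replicates 1 and 2 from 3 and 4, and the part of that split in the shifts was not tested either.

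**Figure D4:**
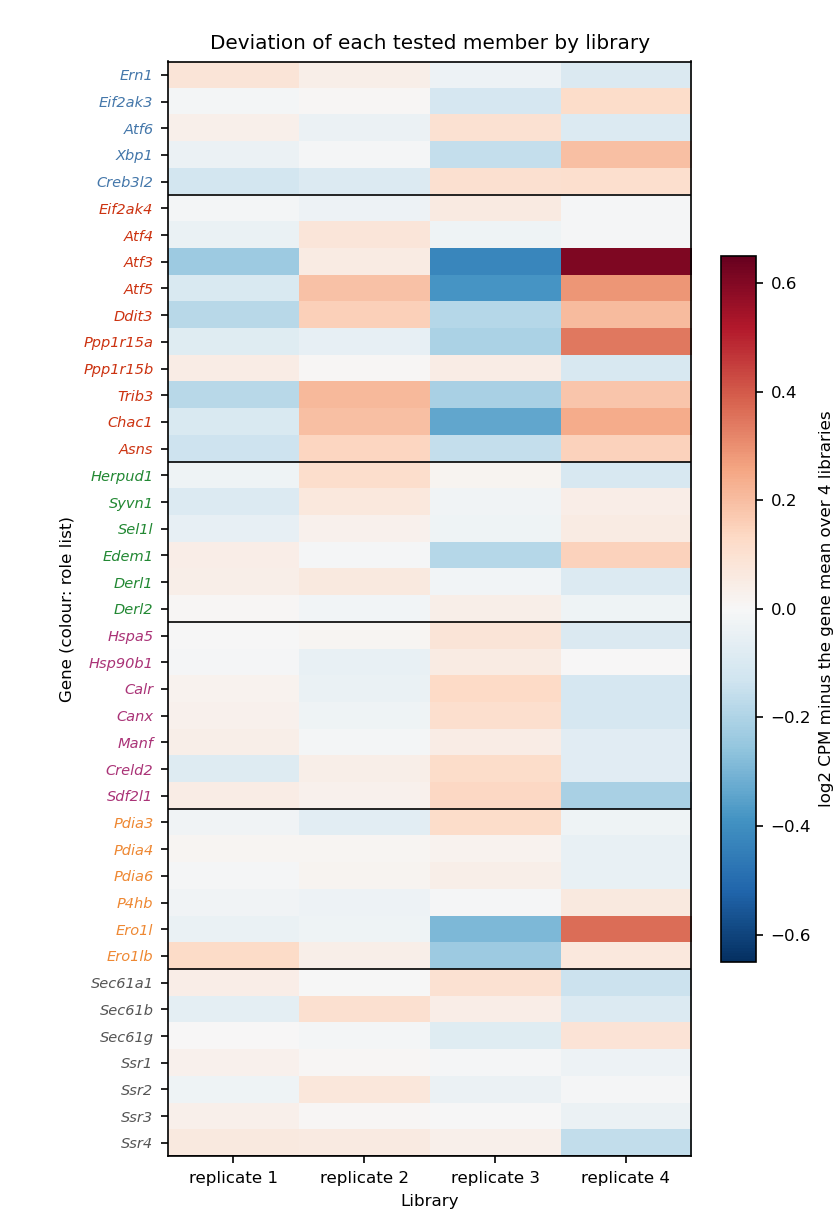
Deviation of each of the 41 tested members from its own mean over the 4 libraries, in log2 CPM, with genes in rows by role and libraries in columns. Atf3, Atf5 and Chac1 have their lowest values in replicate 3 and their highest in replicate 4, while the chaperone rows lie slightly above their means in replicate 3.

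**Figure D5:**
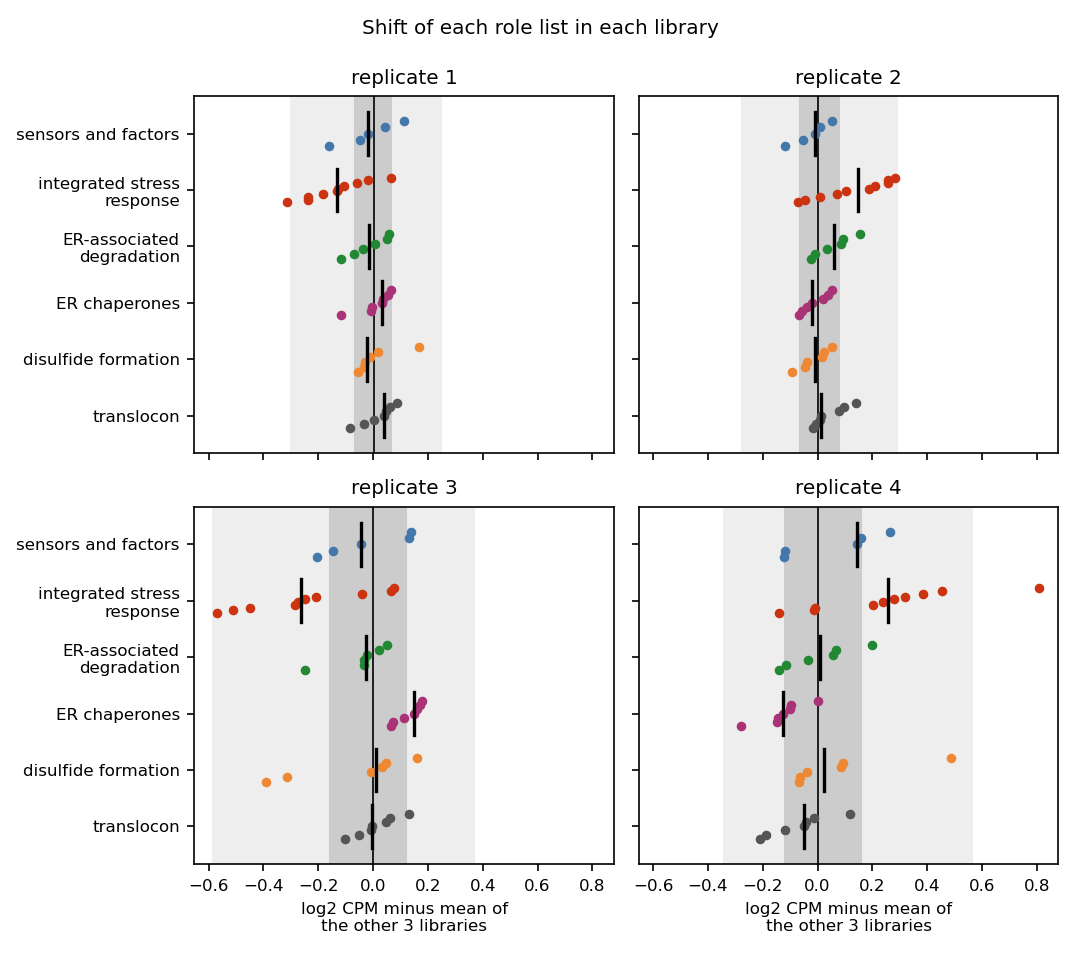
Shift of each tested member in each library (log2 CPM minus the mean of the other 3), with 1 point per gene, a black bar at the median of each role, and grey bands for the middle 50% and 90% of all genes tested. In replicate 3 the stress response bar lies at -0.26 and the chaperone bar at 0.15, and in replicate 4 they lie at 0.26 and -0.13.

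Grouped by promoter element instead of role, the 7 tested genes with an ERSE had a median shift of 0.11 in replicate 3 and -0.10 in replicate 4, and 6 of them were highest in replicate 3 (33.9% of all genes). The 5 genes with the amino acid response element core had -0.28 in replicate 3 and 0.24 in replicate 4, and 4 of them were lowest in replicate 3 (34.2% of all genes). These groups are mostly the chaperones and the stress response genes again, so they add no separate evidence. Derl3 held an ERSE while its level was the lowest of the 42 genes.

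The other genes of the pathway were taken in 5 further lists. All 18 other folding genes had at least 1 TPM in every library, led by Ganab at 296 ± 13.4 TPM, Ppib at 236 ± 3.63 TPM and Mogs at 221 ± 19.4 TPM (SD, n = 4), which encode a glucosidase subunit, a prolyl isomerase and a glucosidase. Of 24 genes of translocation, signal peptide cleavage and glycosylation, 23 did, led by Ddost at 338 ± 3.65 TPM, Spcs3 at 303 ± 11.97 TPM and Rpn2 at 292 ± 3.81 TPM, members of the glycosylation and signal peptidase complexes. The exception, Srp54a, held 1 count over all libraries, and is uncertain because reads shared with near-identical copies were not counted. All 15 other degradation genes passed 1 TPM, led by Vcp, Aup1 and Selenos at 256 ± 7.39, 189.99 ± 2.18 and 155 ± 12.3 TPM. All 20 genes of transport from the ER to the Golgi did, led by Surf4, Sec24c and Sec13 at 334 ± 2.89, 215 ± 1.97 and 182 ± 6.61 TPM.

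The other stress sensors and stress response genes had 18 of 22 genes at 1 TPM in each library and a list median of 24.2 ± 4.60 TPM. Ddit4, which encodes an inhibitor of the kinase mTORC1, was the highest at 599.9 ± 119 TPM, followed by Psat1, an enzyme of serine synthesis, at 335 ± 9.84 TPM and the tRNA ligase gene Rtcb, which joins the cut ends of Xbp1 mRNA, at 321 ± 11.5 TPM. Below 1 TPM in the mean were Slc7a11 at 0.609 TPM, Creb3l4 at 0.406 TPM and Creb3l3, which had no count. In edgeR's test of the spread between libraries 0 genes of the 5 lists passed an adjusted p of 0.05 (0.00823% of all genes). In the same test 4 of the 20 tested stress genes had an unadjusted p under 0.05 (4.9% of all genes). In the folding, translocation, degradation and transport lists 0 of 18, 23, 15 and 20 tested genes did. That all 4 fell in 1 list was noticed in these values and was not tested. Of the 20 tested stress genes, 9 had their highest value in replicate 4 (33.2% of all genes) and 6 their lowest in replicate 3 (34.2% of all genes). In 6 of the 20, replicates 2 and 4 both lay above 1 and 3, against 21.9% of all genes.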

How the data were processed

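RNA was sequenced in 4 libraries of 1 group, grouped by the cell type label. The authors' deposited files hold raw counts, whole numbers of read pairs for each gene. Per the file headers, featureCounts 1.4.6-p4 summed the exons of each gene of GENCODE release 13 (mouse), took read pairs as reverse-stranded (option 2) and kept those with both mates aligned. Reads mapping to several places or overlapping several genes were not counted, so genes with near-identical copies or same-strand neighbours are set low (3 members share exonic bases: Hsp90b1 5.38%, Pdia4 0.584%, Manf 0.397%). The build is mm10 per the labels, and for the aligner no version is given.

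Symbols came from GENCODE release 21, which matched 50376 of 50600 identifiers. The other 224 held 0.0104% of counts. TPM were computed here with the exonic length that the files give for each gene. Spread between libraries was tested with edgeR 4.0.16 (intercept alone, TMM, filterByExpr, upper tail of F), with DESeq2 1.42.0 as an alternative. The common biological coefficient of variation was 9.13%. Log2 CPM used a prior count of 2, and gene pairs a pseudocount of 1. Methods were tested on simulated data. No pair of libraries was alike within sampling noise (genes with 20 counts or more, chi-square 3.33 to 18.5 per gene), so none was counted as a duplicate.

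Members, role lists, other pathway lists, markers and pairs were chosen with earlier results of these data known. All members could be named, and of the other lists the 3 highest genes, those below 1 TPM and those past the spread test. Motifs were searched in RefSeq windows of GRCm38.p6. Atf6, Ppp1r15b, Derl1, Manf, Ero1l, Ero1lb, Sec61a1 and Ssr2 had no window there. A planned look at protein endings was not run, as protein sequences were not used here. Intervals are exact Poisson at 95%. Alternatives were other scalings, filters, pseudocounts and lengths, DESeq2, and leaving out each library.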

Additional observations from a re-analysis of the deposited data

Results flagged for a closer look

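Of 48 items (the 42 genes and 6 list medians) screened for 1 library standing apart from the other 3, 2 passed the critical value for 4 samples, and chance flags about 1 in 20. Derl3 had 0.346 TPM in replicate 2 against 1.14 to 1.23 TPM in the others, a gap of 0.901 of its range, from 5 counts. The median level of the disulfide formation genes was 280.2 TPM in replicate 4 against 288.1 to 289.6 TPM in the others, a gap of 0.84 of its range. The median lies midway between Pdia6 and Pdia4 in the others, but between Pdia6 and Ero1l in replicate 4. The group was not low there, as its summed level was highest in replicate 4, at 2600 TPM against 2459 to 2530 TPM in the others.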

How the results depend on the processing

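The count of members past the spread test, 0 with edgeR, TMM and filterByExpr, was 1 with no filter and 1 by DESeq2 dispersion outliers, and 0 when any library was left out. For all genes the count of 1 became 126 with no filter, 5 with a mean count of at least 50 and 111 in DESeq2, and ran from 1 to 20 when a library was left out, 20 without replicate 4. The count of members at 1 TPM moved little under its 6 alternatives, from 41 to 42 when a library was left out. Of 126 alternative values of the gene pairs 4 reversed. Hspa5 over Hsp90b1 was 0.0449 on CPM and ran from -0.0452 to 0.00821 when a library was left out, positive without replicate 4. With median transcript lengths, an alternative chosen after seeing the data, Eif2ak3 over Ern1 was -0.12 and Atf6 over Ern1 was -0.59, as the length of Ern1 in that alternative is far shorter. Derl1 over Derl2 kept its sign but came to 0.14, and Hspa5 over Hsp90b1 to -0.63. Among the list shifts, that of ER-associated degradation ranged from -0.0343 to 0.00321 (replicate 3) and from -0.00903 to 0.0204 (replicate 4) when a library was left out, which was also chosen after seeing the data, and that of the translocon from -0.0254 to 0.0135 (replicate 3). That of disulfide formation in replicate 3 was -0.0169 with library totals alone. The cause of these small reversals was not tested. The shifts of the integrated stress response and the ER chaperones in replicates 3 and 4 kept their sign under all alternatives run. No paired analysis was possible because there is 1 group. Low counts limit Derl3 and, in replicate 3, Ero1lb and Chac1.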
